A study of Mus musculus with 6 samples.

Results

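Copying the genome takes factors that recognise origins, switch on the helicase, synthesise and join DNA, shield the fork and rebuild chromatin behind it, and 45 genes for such factors were compared between mouse heart libraries. The genes were chosen by symbol, by sub-complex and leaving out the MCM helicase genes. All 45 were found among the 24421 genes of the deposited table. Levels are in FPKM, a number of sequenced fragments scaled for library size and for the length of the transcript. Every one of the 45 genes passed the filter of 1 FPKM in at least 3 libraries and so was among the 12121 genes tested. The study, by its title, concerns how cardiomyocytes divide without Gas2l3, whose product binds actin and microtubules. Both groups were hearts of C57/Bl6 mouse embryos late in gestation (E18.5), 3 libraries of genotype wildtype and 3 of genotype Gas2l3 -/-. The labels do not say how the allele was made or whether each library came from its own embryo, so p-values measure only the spread between these libraries, which may be technical. Each library mixes all cells of the heart, and fewer dividing cells and less RNA per cell cannot be told apart.

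Before DNA synthesis the origin recognition complex, Cdc6 and Cdt1 load the MCM helicase on origins, and geminin keeps Cdt1 from loading it again. The Dbf4-dependent kinase, Cdc45 and the GINS complex then activate the helicase, polymerase alpha-primase starts each strand, and polymerases epsilon and delta extend the strands. Many of these genes are transcribed in a wave ahead of S phase, under E2F transcription factors, and cardiomyocytes of the late fetal heart still enter that phase before they leave the cycle after birth.

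The E2F site is therefore the sequence shown for these genes. RefSeq promoters (build GRCm38.p6, 300 bases each, from 250 before to 50 after an annotated start) were matched by symbol for 37 of the 45. One of the E2F strings TTTGGCGC, TTTCCCGC, TTTGCCGC or TTTCGCGC, read on both strands, was found for 14 of the 37 genes, or 37.8%, against 4.79% of the tested genes with a promoter and 2.6% of all genes of the promoter table. The letters TTTGAA of the cell cycle homology region (CHR), which no E2F string contains, were found for 18.9% of the 37 genes, against 13.6% of tested genes and 20.2% of all genes of the promoter table. The letters CCAAT were found for 54.1%, against 42.7% and 41.1%. A match describes the letters and does not show that a factor binds there. Windows of 30 bases around the match are printed for 4 genes whose groups did not overlap, for Cdt1 and Dnmt1, and for 3 genes with a match and small or positive differences. They are written 5′ to 3′ on the strand of the gene, with the match in capitals.
Lig1, chr7:13278841-13278870, plus strand: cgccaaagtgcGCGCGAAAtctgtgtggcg
Uhrf1, chr17:56304117-56304146, plus strand: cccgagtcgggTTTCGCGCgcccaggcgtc
Pold1, chr7:44548766-44548795, minus strand: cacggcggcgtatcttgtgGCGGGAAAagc
Clspn, chr4:126556990-126557019, plus strand: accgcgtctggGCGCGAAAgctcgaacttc
Cdt1, chr8:122568035-122568064, plus strand: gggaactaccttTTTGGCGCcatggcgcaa
Dnmt1, chr9:20952824-20952853, minus strand: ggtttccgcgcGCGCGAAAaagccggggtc
Orc1, chr4:108579416-108579445, plus strand: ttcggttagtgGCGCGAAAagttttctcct
Orc3, chr4:34614965-34614994, minus strand: ccatgcctcccTTTCCCGCacgccccgcct
Gins3, chr8:95633507-95633536, plus strand: gcgagtgcggcGCGGGAAAgcgagtttgaa
A longer stretch is shown for Uhrf1, where an E2F string and a pair of CCAAT boxes stand within a stretch of 150 bases upstream of a start site, in a part of the gene that overlaps no annotated exon.
Uhrf1, chr17:56304093-56304242, plus strand: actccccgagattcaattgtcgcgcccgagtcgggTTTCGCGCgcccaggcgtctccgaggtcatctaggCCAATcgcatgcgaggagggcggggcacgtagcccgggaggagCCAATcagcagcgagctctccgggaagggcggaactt
The first base of that stretch lies 220 bases before the start site, and its capitals mark the E2F string and the CCAAT boxes.

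Whole reads recovered from the deposited values came to between 3414257 and 7732674 per library, and the 45 genes had between 14 and 1694 reads each in a library. Gas2l3 stood at 10.3, 4.12 and 2.48 FPKM in the wildtype libraries, in the order of replicates 1, 2 and 3 used throughout, against 4.03, 2.99 and 3.06 FPKM in the Gas2l3 -/- libraries, so its groups overlap and its reads do not check the labels (log2 fold change −0.47 ± 0.44, limma adjusted p = 0.966). The libraries are therefore called wildtype-labelled and knockout-labelled. Wildtype-labelled replicate 3 stood apart: its mean correlation with the other 5 libraries was 0.899, against 0.935 to 0.957 for each of those. Its deviations from the gene means followed the GC content of the transcripts, with r = 0.702 across tested genes. Among the 45 replication genes that correlation, across genes that are not independent, was 0.774 in this library and between −0.523 and −0.245 in the others. This library was the lowest of the 6 for 21 of the genes, whose median GC content was 44.4%, against 34.1% of all tested genes. It was the highest for 12 genes, of median GC content 53.5%, against 37.5% of all tested genes. Results are therefore given for the values as deposited, after removal of each library's trends with GC content and transcript length, and without this library.

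**Figure D1:**
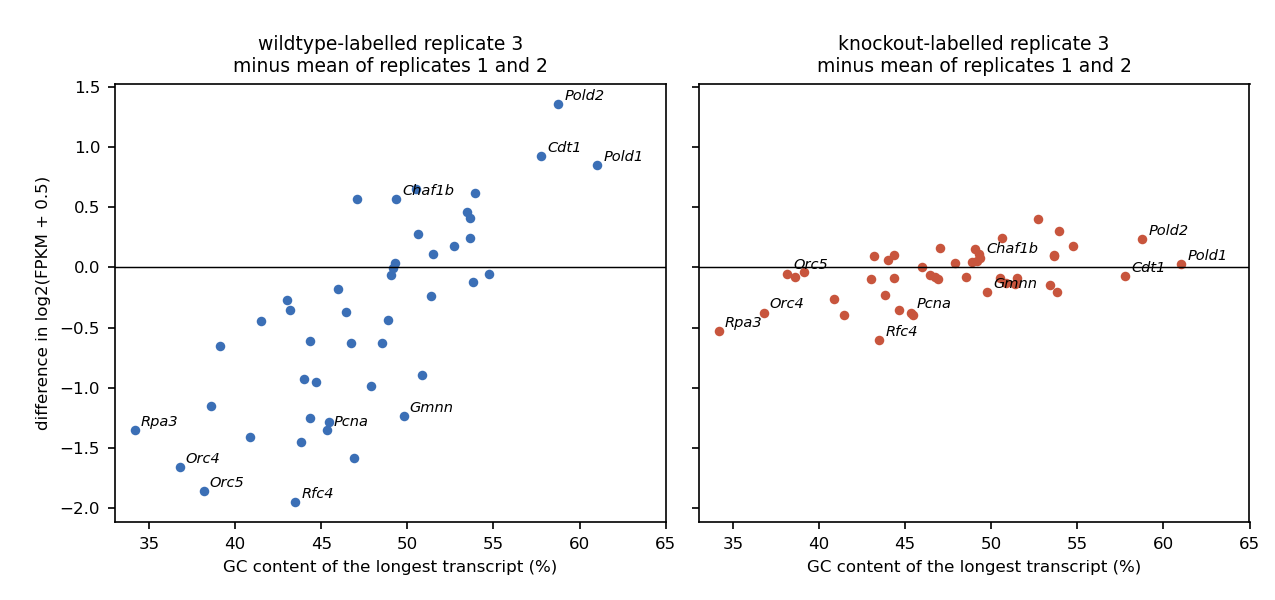
For each of the 45 genes (points), the log2(FPKM + 0.5) level of replicate 3 minus the mean of replicates 1 and 2 of its own group (vertical axis) is plotted against GC content of the longest transcript in percent (horizontal axis), with wildtype-labelled libraries on the left and knockout-labelled on the right. In wildtype-labelled replicate 3 GC-poor genes such as Orc4, Orc5 and Rpa3 sit below 0 and GC-rich genes such as Pold1, Pold2 and Cdt1 above it.

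Replication genes were, as a list, modestly lower in the knockout-labelled hearts, and no single one passed the test. The mean of the log2 level was lower for 31 of the 45, against 51% of all tested genes. The median log2 fold change was −0.16, against −0.0089 over all tested genes. Lower and higher means are counted on this log2 scale throughout. Gmnn, Rpa3 and Slbp were lower in mean FPKM (−5.3%, −0.77% and −0.14%) but not on that scale. When libraries were scaled to a common FPKM total, which shifted the median of all genes to 0.15, the lower count was 23 of 45 (33% of all genes) and the median −0.065. By limma on log2(FPKM + 0.5), 0 of 45 had an adjusted p under 0.05, as had 0% of all tested genes, and voom on the recovered reads called 0 as well. At an unadjusted p under 0.05 there were 3 lower genes, Chaf1b, Uhrf1 and Lig1, against 1.35% of tested genes, and 0 higher, against 1.9%. By voom the lower count was also 3. With the replicate number as a block the counts were 7 lower (2.27% of tested genes) and 0 higher (3.75%). The lower count was 5 without wildtype-labelled replicate 1 (7.1% of tested genes), 4 without replicate 2 (1.34%) and 7 without replicate 3 (1.66%). It was 0 without knockout-labelled replicate 1 (0.701%), replicate 2 (0.817%) or replicate 3 (0.602%).

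All 3 knockout-labelled libraries lay below all 3 wildtype-labelled ones for 8 genes, Cdc45, Pold1, Rfc2, Rfc5, Lig1, Clspn, Chaf1b and Uhrf1, against 4.74% of tested genes. The opposite order held for 0 of the 45, against 5.02% of tested genes. With GC content and length trends removed, 34 of 45 had a lower mean (49.4% of all genes), 17 lay lower without overlap (7.83% of all genes) and 11 lower genes had an unadjusted p under 0.05 (3.55% of all genes), with a median of −0.26. In the same setting 0 of 45 lay higher without overlap (7.26% of all genes), 0 were higher at an unadjusted p under 0.05 (4.14%), and 0 passed the adjusted test, as did 0.0171% of all genes. Without wildtype-labelled replicate 3, 41 of 45 had a lower mean (49.9% of all genes), 17 lay lower without overlap (8.7% of all genes) and 0 higher (10.3%), 0 were higher at an unadjusted p under 0.05 (2.78%), and the median was −0.36. The count of genes that lay lower without overlap was 13 without wildtype-labelled replicate 1 (17.3% of all genes) and 12 without replicate 2 (9.74%). It was 9 without knockout-labelled replicate 1 (7.4%), 13 without replicate 2 (7.91%) and 10 without replicate 3 (6.78%). Between libraries of the same replicate number, 18 genes were lower in 3 of 3 pairs, against 13.8% of tested genes, and Orc4 alone was higher in 3 of 3, against 16.6%.

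By sub-complex, 12 of 14 medians lay below 0 as deposited, 13 with trends removed and 14 without wildtype-labelled replicate 3. As deposited the lowest were those of polymerase delta (−0.66), maintenance methylation (−0.63), chromatin assembly factor 1 (−0.57) and Okazaki fragment maturation (−0.47). With trends removed these were −0.33, −0.49, −0.56 and −0.35, and the Dbf4-dependent kinase (−0.41) and licensing (−0.36) then lay below polymerase delta and Okazaki fragment maturation. Cdc45 with GINS (−0.30), licensing (−0.30), RPA (−0.29), polymerase epsilon (−0.27), the Dbf4-dependent kinase (−0.20) and fork protection (−0.19) lay between. The medians of Cdc45 with GINS and of the kinase turned positive without 1 library, to 0.11 without wildtype-labelled replicate 2 and to 0.11 without replicate 1, and that of fork protection was 0.11 when only genes with a mean of 5 FPKM or more were kept. Polymerase alpha-primase (−0.12) and the clamp with its loader (−0.092) had the smallest negative medians and turned positive under the common FPKM total, to 0.056 and 0.079.

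**Figure D2:**
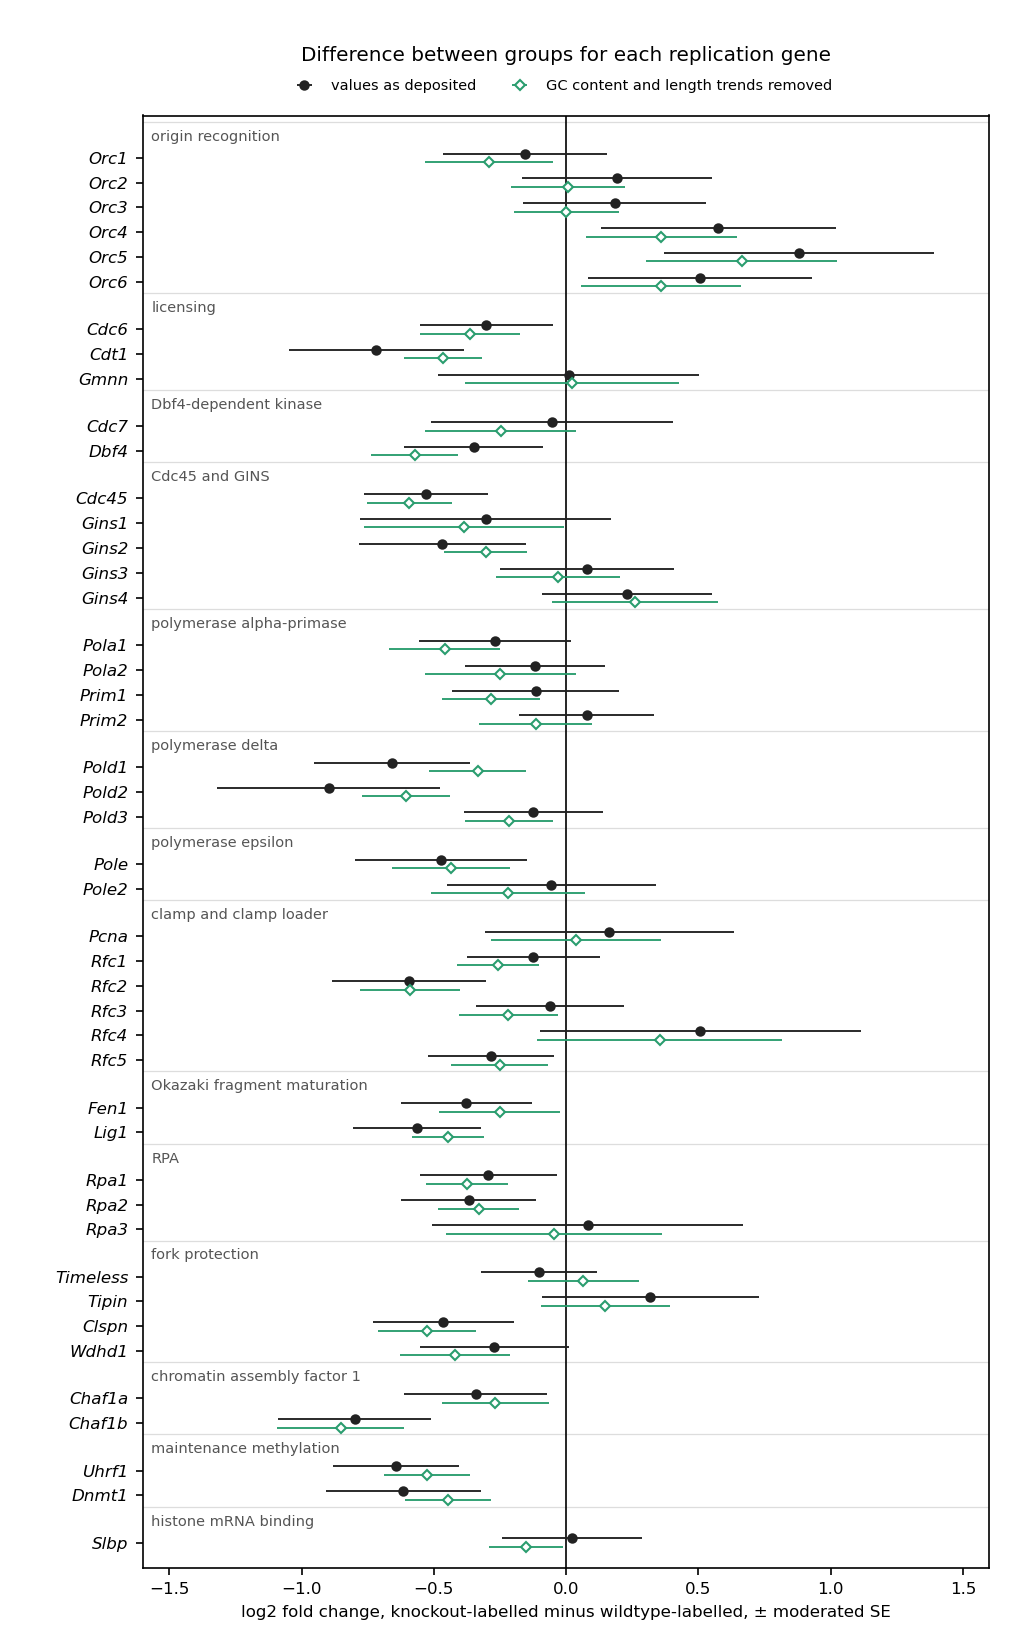
The log2 fold change of each of the 45 genes, knockout-labelled minus wildtype-labelled (horizontal axis), is shown with its moderated standard error for the values as deposited (black circles) and with GC content and length trends removed (green diamonds), grouped by sub-complex. Most points lie left of 0, from −0.90 for Pold2, and the origin recognition genes apart from Orc1 lie at or to the right of 0, up to 0.88 for Orc5.

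Origin recognition stood apart from most sub-complexes in sign. Its 6 genes encode the complex that marks origins, and 5 had a higher mean in the knockout-labelled hearts, with a median log2 fold change of 0.35. That median was 0.18 with trends removed and −0.089 without wildtype-labelled replicate 3, so its direction rests on that library. Orc5, the subunit with the smallest p, stood at 13.3, 9.87 and 2.80 FPKM in the wildtype-labelled libraries, against 10.3, 19.0 and 13.5 FPKM in the knockout-labelled ones. The groups overlap, with wildtype-labelled replicate 3 far below the other 5 libraries (log2 fold change 0.88 ± 0.51, adjusted p = 0.966 by limma, and 0.26 without that library). Orc1, the large ATPase subunit and the one whose level is known to vary with the cell cycle, was the lowest-expressed gene of the 45. Its levels were 1.42, 1.49 and 0.764 FPKM in the wildtype-labelled libraries and 0.875, 1.24 and 0.963 FPKM in the knockout-labelled ones, from 14 to 34 reads each, and the groups overlap. Its log2 fold change was −0.16 ± 0.31, the only negative one of the 6. Orc2 (0.19 ± 0.36), Orc3 (0.18 ± 0.35), Orc4 (0.57 ± 0.44) and Orc6 (0.51 ± 0.42), further subunits of the complex, each had wildtype-labelled replicate 3 as the lowest library. Exons of Orc2, Orc4, Orc5 and Orc6 overlap those of another gene of the table, so their reads may be shared, as whether strand was used in counting is not given in the sources used here.

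Among the licensing factors the loader Cdt1 had the larger difference as deposited and its inhibitor geminin (Gmnn) almost none. Without wildtype-labelled replicate 3, the highest library for Cdt1 and the lowest for Gmnn, they had −0.41 and −0.40. Cdt1 stood at 18.0, 23.4 and 39.5 FPKM in the wildtype-labelled libraries, against 13.1, 18.7 and 14.8 FPKM in the knockout-labelled ones. The overlap is narrow, since only knockout-labelled replicate 2 lies above a wildtype-labelled library, and with trends removed there was none. Its log2 fold change was −0.72 ± 0.33 (adjusted p = 0.966 by limma), −0.47 ± 0.15 with trends removed and −0.41 without wildtype-labelled replicate 3. Geminin levels were 54.0, 112 and 32.7 FPKM against 39.9, 95.0 and 53.4 FPKM. Both replicates 2 were high and the groups overlap throughout (log2 fold change 0.0097 ± 0.49, 0.022 with trends removed, and −0.40 without wildtype-labelled replicate 3). Cdc6, the ATPase that helps to load the helicase, had a log2 fold change of −0.30 ± 0.25, and −0.36 with trends removed.

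The Dbf4-dependent kinase, which phosphorylates the loaded helicase, showed its larger difference in the activating subunit as deposited and with trends removed. Dbf4 stood at 14.4, 14.0 and 8.88 FPKM in the wildtype-labelled libraries, against 9.95, 9.13 and 9.25 FPKM in the knockout-labelled ones. Wildtype-labelled replicate 3 lies below the knockout-labelled range and the other two above it, and with trends removed the groups did not overlap. Its log2 fold change was −0.35 ± 0.26 as deposited and −0.57 ± 0.17 with trends removed (unadjusted p = 0.00858, adjusted p = 0.497, limma). Cdc7, the catalytic subunit, stood at 10.3, 4.63 and 2.23 FPKM against 5.54, 4.36 and 4.11 FPKM. Its wildtype-labelled libraries span the knockout-labelled ones on both sides, and its log2 fold change of −0.053 ± 0.46 was 0.086 under the common FPKM total. With trends removed Cdc7 had −0.25. Without wildtype-labelled replicate 3 it had −0.54, close to the −0.57 of Dbf4.

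Cdc45, which with GINS completes the active helicase, had libraries close together within each group. Its levels were 18.1, 16.4 and 17.6 FPKM in the wildtype-labelled and 10.1, 13.2 and 12.5 FPKM in the knockout-labelled libraries, a mean of 17.4 ± 0.923 FPKM (SD, n = 3) against 11.9 ± 1.65 FPKM (SD, n = 3). The groups do not overlap, and the knockout-labelled mean differed by −31.3%. The log2 fold change was −0.53 ± 0.23 as deposited (unadjusted p = 0.0506, adjusted p = 0.966, limma), −0.59 with trends removed and −0.52 without wildtype-labelled replicate 3. The gene lies at chr16:18780447-18811987 on the minus strand (mm10). The 4 GINS genes did not share a direction, with −0.30 for Gins1, −0.47 for Gins2, 0.081 for Gins3 and 0.23 for Gins4. Gins3 stood at 5.85, 4.35 and 2.31 FPKM in the wildtype-labelled libraries, against 3.71, 4.61 and 4.25 FPKM in the knockout-labelled ones, all of the latter inside the wildtype-labelled range. Without wildtype-labelled replicate 3 all 4 were negative, the largest being Gins1 at −0.83, whose groups then did not overlap.

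The polymerase alpha-primase genes, which lay down primers, showed small differences, with a median of −0.12 that was 0.056 under the common FPKM total and was −0.27 with trends removed. Pola1, the catalytic subunit, stood at 4.35, 3.83 and 2.86 FPKM in the wildtype-labelled libraries, against 4.04, 2.61 and 2.36 FPKM in the knockout-labelled ones. The groups overlap through knockout-labelled replicate 1, and each pair of the same number was lower in the knockout-labelled library (log2 fold change −0.27 ± 0.29, and −0.46 ± 0.21 with trends removed). Prim2, the large primase subunit, stood at 9.07, 6.95 and 6.50 FPKM against 6.68, 9.71 and 7.50 FPKM, with overlapping ranges (log2 fold change 0.078 ± 0.26). Pola2, the regulatory subunit, and Prim1, which makes the primer, each had −0.12, and 0.057 and 0.055 under the common FPKM total.

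Polymerase delta, which extends the lagging strand, held the largest negative fold change of the 45 as deposited, though not with trends removed or without wildtype-labelled replicate 3. Pold1, its catalytic subunit (chr7:44532746-44548849, minus strand), stood at 18.8, 16.4 and 32.0 FPKM in the wildtype-labelled libraries, against 12.8, 13.9 and 13.6 FPKM in the knockout-labelled ones. The knockout-labelled libraries are closely spaced and all below the wildtype-labelled ones, the highest of which is replicate 3. On the log2 scale the fold change was −0.66 ± 0.30 (adjusted p = 0.966 by limma), −0.33 ± 0.18 with trends removed and −0.37 without that replicate, and the groups stayed apart in each. Pold2 had that fold change, −0.90 ± 0.42, with 116 FPKM in wildtype-labelled replicate 3 against 26.2 to 55.1 FPKM in the other libraries. It was −0.60 ± 0.17 with trends removed, where its groups did not overlap, and −0.44 without that replicate. Both genes are GC-rich, at 61.0% and 58.7%, in the library that ran high for such genes, and the part of this in their differences was not tested beyond these values. Pold3, an accessory subunit at 13.0, 11.5 and 7.71 FPKM against 9.18, 10.4 and 9.21 FPKM, had a log2 fold change of −0.12 ± 0.26, and of 0.041 under the common FPKM total.

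Polymerase epsilon extends the leading strand, and its catalytic gene Pole stood at 5.74, 2.48 and 4.71 FPKM in the wildtype-labelled libraries, against 2.96, 2.33 and 3.20 FPKM in the knockout-labelled ones. Each knockout-labelled library was below its partner of the same number, yet the groups overlap at wildtype-labelled replicate 2, which was low (log2 fold change −0.47 ± 0.32, adjusted p = 0.966 by limma). Pole2 levels were 9.51, 7.43 and 4.10 FPKM against 4.51, 10.6 and 5.34 FPKM. The highest library of that gene is a knockout-labelled one and the lowest a wildtype-labelled one, and its log2 fold change was −0.057 ± 0.39. With trends removed Pole2 and Pole had −0.22 and −0.44, and without wildtype-labelled replicate 3 they had −0.37 and −0.38.

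The sliding clamp and its loader split by gene as deposited. Without wildtype-labelled replicate 3 all 6 genes had a lower mean, with a median log2 fold change of −0.27. Pcna, the clamp that tethers polymerases and the most abundant of the 45, stood at 129, 177 and 58.9 FPKM in the wildtype-labelled libraries, against 94.3, 194 and 104 FPKM in the knockout-labelled ones. Both replicates 2 were highest and the groups overlap, with means of 122 ± 59.4 FPKM (SD, n = 3) and 131 ± 54.8 FPKM (SD, n = 3). Its log2 fold change of 0.16 ± 0.47 became −0.29 without wildtype-labelled replicate 3. Rfc2, a small loader subunit (chr5:134581366-134601805, plus strand), stood at 46.5, 56.1 and 80.3 FPKM against 36.3, 44.1 and 37.5 FPKM. Its groups do not overlap, by a narrow gap between wildtype-labelled replicate 1 and knockout-labelled replicate 2 (log2 fold change −0.60 ± 0.29, adjusted p = 0.966, and −0.59 ± 0.19 with trends removed, adjusted p = 0.537, limma). Rfc3 stood at 19.6, 21.7 and 16.0 FPKM against 13.7, 23.0 and 19.0 FPKM, with the wildtype-labelled libraries inside the knockout-labelled range. Its log2 fold change was −0.060 ± 0.28, and −0.18 without wildtype-labelled replicate 3. Rfc5 (chr5:117378103-117389047, minus strand) stood at 20.1, 24.8 and 18.8 FPKM against 17.0, 18.7 and 16.1 FPKM. Its groups are barely apart as deposited (log2 fold change −0.28 ± 0.24) and overlap with trends removed. Rfc4 ranged from 7.46 FPKM in wildtype-labelled replicate 3 to 52.4 FPKM in knockout-labelled replicate 2 (log2 fold change 0.51 ± 0.61, and −0.14 without the former). Rfc1, the large loader subunit, had −0.12 ± 0.25, and 0.046 under the common FPKM total. Exons of Rfc2, Rfc4 and Rfc5, like those of Gins2, Fen1 and Chaf1a, overlap genes of the table on the opposite strand, and the same limit on shared reads applies. In the annotation, exons of 19 of the 45 genes overlap another gene, which for 10 of them is in the table. Those of Cdc45 and Lig1 overlap opposite-strand genes whose symbols are not in it, and their reads may be shared too.

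Both genes of Okazaki fragment maturation were lower in mean. Lig1, the ligase that seals the lagging strand (chr7:13277283-13311433, plus strand), stood at 18.1, 19.7 and 25.3 FPKM in the wildtype-labelled libraries, against 13.4, 13.8 and 14.6 FPKM in the knockout-labelled ones. The groups do not overlap, and the knockout-labelled mean differed by −33.8%. For Lig1 the log2 fold change was −0.56 ± 0.24 (unadjusted p = 0.0458, adjusted p = 0.966, limma), −0.45 ± 0.14 with trends removed and −0.43 without wildtype-labelled replicate 3. Fen1, the nuclease that trims flaps of displaced primer, stood at 19.0, 18.2 and 17.1 FPKM against 12.1, 17.4 and 12.5 FPKM. Knockout-labelled replicate 2 alone reaches into the wildtype-labelled range, and the log2 fold change was −0.38 ± 0.25.

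Of the genes for RPA, the trimer that coats single-stranded DNA, Rpa2 stood at 28.2, 32.0 and 32.6 FPKM in the wildtype-labelled libraries, against 20.3, 29.1 and 22.8 FPKM in the knockout-labelled ones. Its groups overlap through knockout-labelled replicate 2 and not once trends were removed (log2 fold change −0.37 ± 0.25, and −0.33 ± 0.15). Rpa1, the DNA-binding subunit, had a log2 fold change of −0.29 ± 0.26, and of −0.37 ± 0.16 with trends removed, where its groups did not overlap. Rpa3, the smallest subunit, stood at 50.7, 138 and 32.5 FPKM against 42.3, 126 and 50.5 FPKM. Both replicates 2 were highest, and the log2 fold change was 0.082 ± 0.59.

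At the fork itself, Clspn, the adaptor through which checkpoint kinase signals pass (chr4:126556935-126593903, plus strand), stood at 4.99, 3.62 and 4.06 FPKM in the wildtype-labelled libraries, against 3.48, 2.20 and 3.14 FPKM in the knockout-labelled ones. The groups do not overlap, by a small gap (log2 fold change −0.46 ± 0.27, adjusted p = 0.966, and −0.53 ± 0.18 with trends removed, adjusted p = 0.563, limma). Timeless, which with Tipin steadies the fork, stood at 6.28, 6.43 and 6.09 FPKM against 5.57, 5.53 and 6.34 FPKM. All 6 libraries lay close together, and its log2 fold change of −0.10 ± 0.22 was 0.066 with trends removed and 0.061 under the common FPKM total. Tipin, its partner, had 0.32 ± 0.41, and −0.15 without wildtype-labelled replicate 3, while Wdhd1, which couples the helicase to polymerase alpha, had −0.27 ± 0.28.

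Chromatin assembly and maintenance methylation, the steps that follow the fork, held the 2 smallest unadjusted p of the 45. Chaf1b, the middle subunit of chromatin assembly factor 1 (chr16:93883901-93906115, plus strand), stood at 7.70, 12.8 and 15.0 FPKM in the wildtype-labelled libraries, against 5.93, 6.53 and 6.61 FPKM in the knockout-labelled ones. All knockout-labelled libraries lie below all wildtype-labelled ones, and their mean differed by −46.3%. This gave a log2 fold change of −0.80 ± 0.29 (unadjusted p = 0.0225, adjusted p = 0.966, limma), and of −0.85 ± 0.24 with trends removed and −0.61 without wildtype-labelled replicate 3. The authors' deposited table gave −0.67 with an adjusted p of 0.992 for this gene. Chaf1a, its large partner, stood at 9.60, 11.3 and 11.8 FPKM against 6.08, 9.60 and 10.3 FPKM. Knockout-labelled replicate 1 was the lowest library, and replicates 2 and 3 lay within the wildtype-labelled range, replicate 2 at its lower edge. The log2 fold change was −0.34 ± 0.27.

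Uhrf1, which reads hemimethylated DNA and brings in the methyltransferase (chr17:56303321-56323486, plus strand), stood at 27.0, 21.6 and 28.7 FPKM in the wildtype-labelled libraries, against 16.1, 15.5 and 17.0 FPKM in the knockout-labelled ones. The groups do not overlap, with means of 25.8 ± 3.69 FPKM (SD, n = 3) and 16.2 ± 0.781 FPKM (SD, n = 3), a difference of −37.1%. Its log2 fold change was −0.64 ± 0.24 (unadjusted p = 0.0258, adjusted p = 0.966, limma), −0.53 ± 0.16 with trends removed and −0.56 without wildtype-labelled replicate 3. Dnmt1, the methyltransferase it recruits, stood at 24.3, 16.8 and 31.4 FPKM against 15.0, 13.2 and 17.5 FPKM. Knockout-labelled replicate 3 lies just above wildtype-labelled replicate 2, and with trends removed the groups did not overlap (log2 fold change −0.62 ± 0.29, and −0.45 ± 0.16). Slbp, which binds the stem-loop of histone mRNA, stood at 23.7, 23.5 and 15.2 FPKM against 20.1, 22.3 and 19.9 FPKM. Its means were the same to the precision given, 20.8 FPKM in both groups, and with trends removed its log2 fold change went from 0.023 ± 0.27 to −0.15 ± 0.14.

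**Figure D3:**
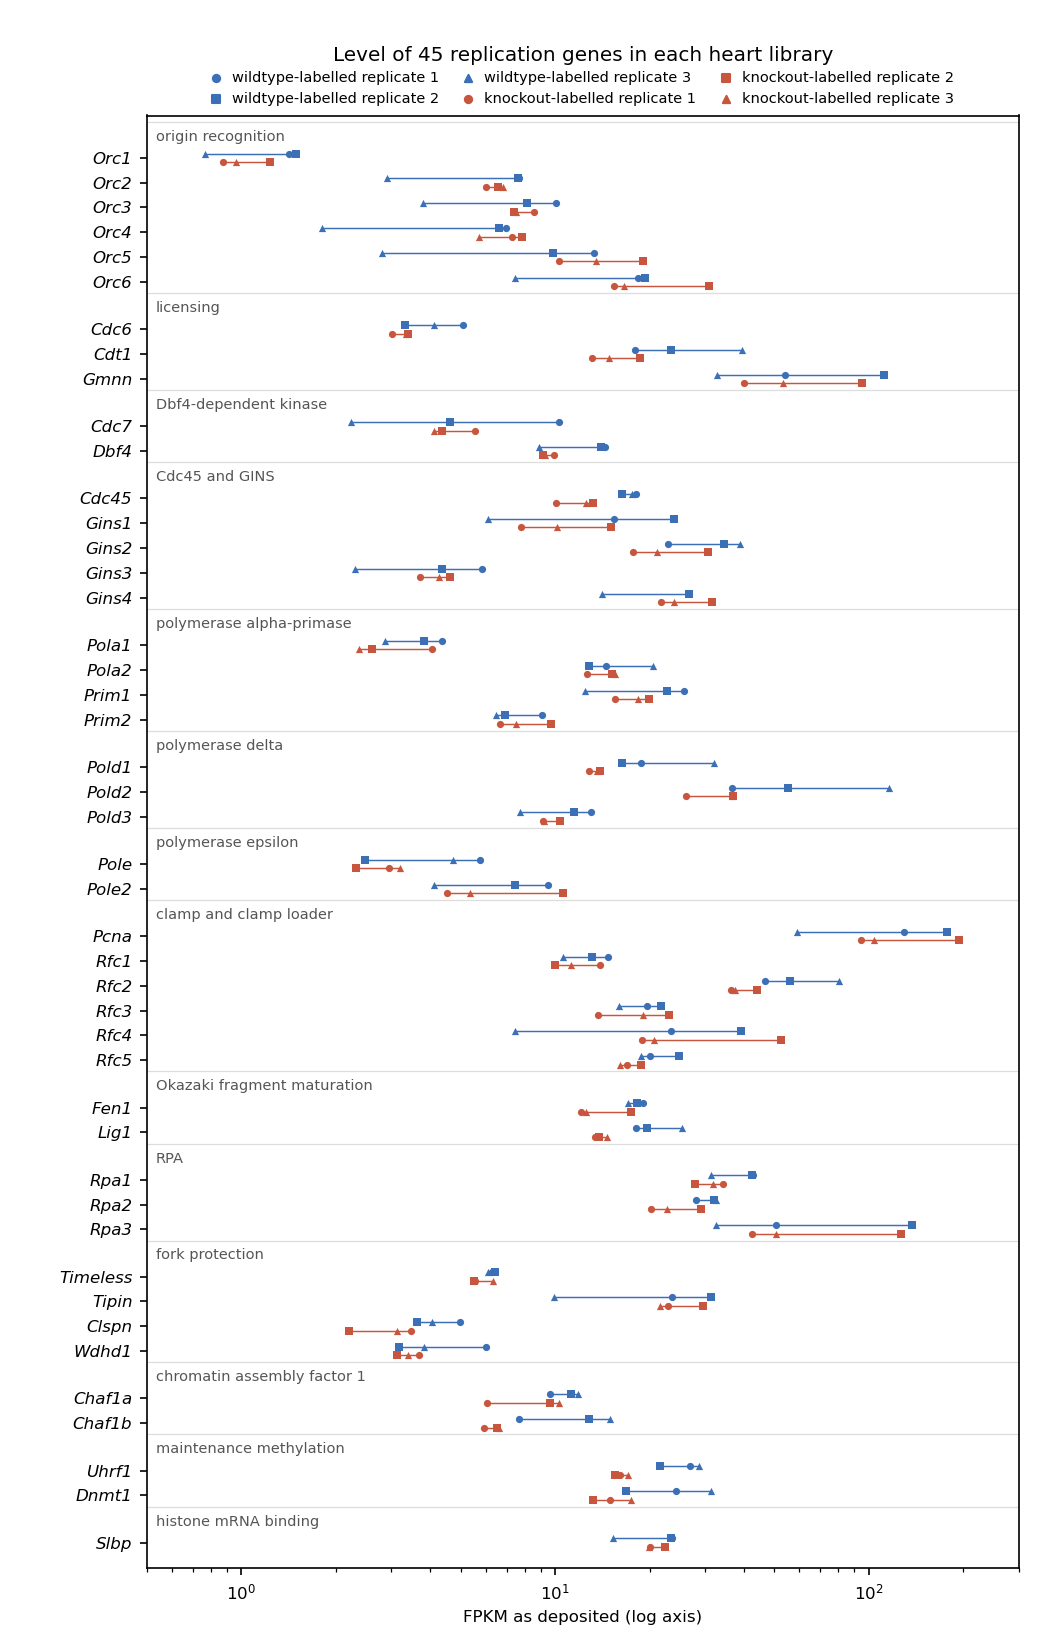
FPKM as deposited (horizontal log axis) of the 45 genes in each library, wildtype-labelled in blue and knockout-labelled in red, with symbols for replicates 1, 2 and 3 and a line over the range of each group. Cdc45, Lig1, Chaf1b and Uhrf1 show separate ranges, whereas the origin recognition genes overlap, with wildtype-labelled replicate 3 (blue triangles) at the low end.

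By library, the median over the 45 genes of the deviation from each gene's mean over 6 libraries was 0.26, 0.20 and −0.18 on the log2 scale in wildtype-labelled replicates 1, 2 and 3. It was −0.24, 0.021 and −0.13 in the knockout-labelled ones, while that of all tested genes stayed between −0.014 and 0.0063. As deposited the groups overlap on this measure, since wildtype-labelled replicate 3 lay below 2 of the 3 knockout-labelled libraries. With trends removed the values were 0.22, 0.17 and 0.050 against −0.24, −0.020 and −0.15.

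**Figure D4:**
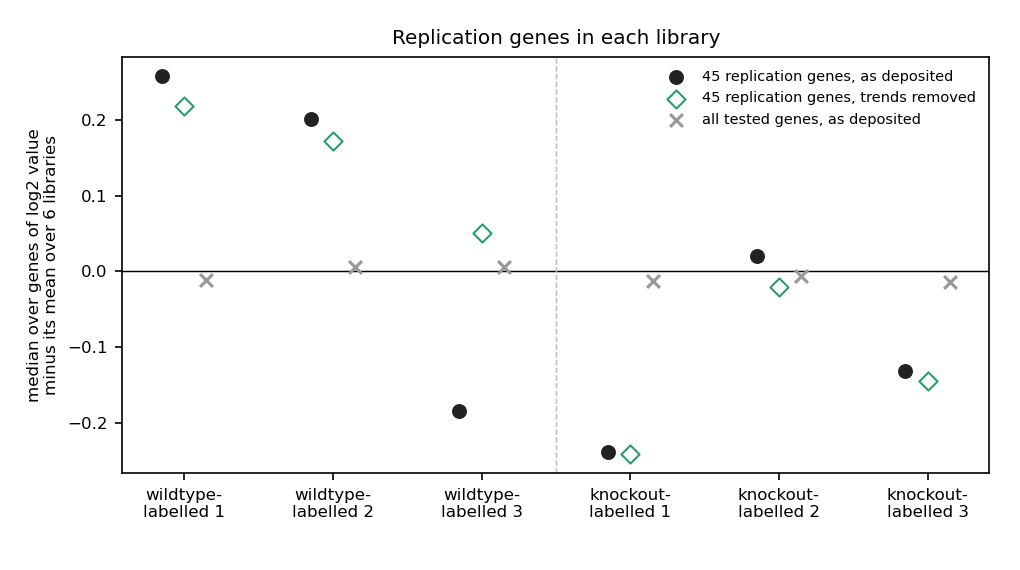
Median over genes of each library's log2 value minus the gene's mean over the 6 libraries (vertical axis, log2) for the 45 replication genes as deposited (black circles) and with trends removed (green diamonds), and for all tested genes (grey crosses). Wildtype-labelled replicate 3 moves from −0.18 to 0.050 when trends are removed, and the other libraries move less.

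Split by promoter letters, the 14 genes with an E2F string had a median of −0.28. Of these, 12 had a lower mean (51% of all tested genes) and 4 lay lower without overlap (4.74%). Among the 23 genes with a promoter and no such string, 15 had a lower mean, the median was −0.12 and 3 lay lower without overlap. With trends removed the medians were −0.35 and −0.25, and 7 and 8 genes lay lower without overlap (7.83% of all genes). The median GC content of the sets with and without an E2F string was 48.8% and 46.0%. The difference between these sets, and the part of GC content in it, was not tested. Lig1, Uhrf1, Pold1 and Clspn are the genes of the printed windows whose groups did not overlap. Orc1, Orc3 and Gins3 carry an E2F string as well, with fold changes of −0.16, 0.18 and 0.081. Across the 45 genes the log2 fold change was correlated with GC content at r = −0.717 as deposited, −0.463 with trends removed and −0.326 without wildtype-labelled replicate 3, a description over genes that share the same 6 libraries.

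Further genes of DNA synthesis, among them the MCM genes, nucleotide enzymes and other fork and chromatin factors, were listed with earlier results known. Of 41 in the table, 32 had a lower mean (51% of all tested genes) and 9 a higher one, and 26 were lower under the common FPKM total (33%). Of the 41, 13 lay lower without overlap (4.74% of all tested genes), 4 were lower at an unadjusted p under 0.05 (1.35%) and 0 passed the adjusted test of limma, with a median of −0.24. The 4 with the smallest p were the helicase subunit Mcm7 (−0.83 ± 0.24), the ribonucleotide reductase subunit Rrm2 (−0.85 ± 0.25), the histone chaperone Asf1b (−0.90 ± 0.28) and thymidine kinase Tk1 (−1.01 ± 0.37), each with an adjusted p of 0.966 by limma. Rrm2 stood at 79.7, 95.1 and 76.9 FPKM in the wildtype-labelled libraries, against 46.1, 44.9 and 47.1 FPKM in the knockout-labelled ones. Genes of G2 and mitosis, a later phase of the cycle, had a lower mean in 16 of 16 cases (51% of all tested genes). Of these, 8 lay lower without overlap (4.74%), 6 had an unadjusted p under 0.05 (1.35%) and 0 passed the adjusted test of limma. Their median was −0.66, and Aurka, a spindle kinase, had the smallest p (−0.86 ± 0.24). Under the common FPKM total 16 were lower (33%), 6 lay lower without overlap (3.2%) and 1 lower gene had an unadjusted p under 0.05 (0.512%). These lists share the same libraries with the replication genes, and the difference between the lists was not tested.

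The authors' deposited table gave negative fold changes for 34 of the 45 genes, against 54.9% of the tested genes, with 8 at an unadjusted p under 0.05 in that direction, against 2.18% of the tested genes, and 0 with an adjusted p under 0.05, against 0.0578%. Marker genes of the cells in the heart were compared beside these results. The summed level of 8 cardiomyocyte markers ran from 33228 to 47548 FPKM in the wildtype-labelled and from 34794 to 36684 FPKM in the knockout-labelled libraries, with 7 of 8 lower in mean and 0 called. For 7 fibroblast markers the sums ran from 766 to 1658 FPKM and from 1033 to 1308 FPKM, with 2 of 7 lower. For 6 endothelial markers they ran from 202 to 427 FPKM and from 326 to 383 FPKM, with 2 of 6 lower. For 7 macrophage markers they ran from 53.6 to 111 FPKM and from 82.4 to 132 FPKM, with 2 of 7 lower. The knockout-labelled range of the sums lay inside the wildtype-labelled one for the first 3 cell types. Gene by gene, the median log2 fold change was −0.38 for the cardiomyocyte markers, against −0.0089 over all tested genes. It was 0.27 for fibroblast, 0.081 for endothelial and 0.036 for macrophage markers. The part of cell composition in the replication genes was not tested. For 6 smooth muscle and pericyte markers the sums ran from 422 to 768 FPKM and from 388 to 677 FPKM, and for 5 epicardial markers from 73.5 to 143 FPKM and from 104 to 107 FPKM. Of 7 erythroid markers in the table the globins Hba-a1, Hba-a2, Hbb-bs and Hbb-bt were listed at 0 in every library, and the sums of the other 3 reached 49.5 FPKM in the wildtype-labelled and 123 FPKM in the knockout-labelled libraries.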

How the data were processed

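Total RNA of embryonic hearts was purified, poly(A) RNA was selected and libraries were amplified by PCR, per the labels' protocols. The authors deposited gene levels in FPKM for each library and, per the file headers, a comparison of the groups whose other values are mean normalized counts, fold changes and p-values. Build mm10 and the tools FastQC and DESeq2 are named in the submitters' processing notes. Aligner, counter, annotation and use of strand were not given in the sources used here. Whole reads were recovered from both tables (100% of 94235 values within 0.01), and read numbers cover counting error only. Recovered depth ranged from 3414257 to 7732674 reads per library.

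The 45 genes, the sub-complexes and the other lists were chosen with earlier results of these data known. The test was limma (version 3.58.1, in R 4.3.3; lmFit and trended eBayes), two-sided, run on log2(FPKM + 0.5) of the 12121 genes with 1 FPKM or more in at least 3 libraries, with Benjamini-Hochberg adjustment over all of them and calls under 0.05. It was also run on simulated data that held larger changes than those of the 45 genes and no trends with GC content or length. That run does not show how the test performs for differences of this size. The pseudocount narrows fold changes of genes with low FPKM, and errors are moderated SE. Loess (span 0.3) on GC content of the longest GENCODE M21 transcript (GRCm38, the same build as mm10) and on transcript length (from the ratio of reads to FPKM) gave the values with trends removed, for 11709 genes (96.6%). Coordinates are 1-based, from the same annotation.

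Deviations from the group means correlated at 0.472, 0.443 and 0.186 between libraries of the same replicate number, and at 0.303, 0.403 and 0.0974 with trends removed. The labels give the numbers and do not say what they share, so the pairing comes from the data. Values in every library are printed for the gene of each sub-complex with the smallest p and the one nearest 0, for Pcna, and for Gas2l3 as a check of the labels. Other values per library were chosen after they were seen. Alternatives were other pseudocounts, filters and scalings, the replicate block, trends removed, library weights, no intensity trend, voom on the recovered reads and each library left out.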

Additional observations from a re-analysis of the deposited data

How the results depend on the processing

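Depth limits the 6 genes with a library under 50 reads, Orc1 (14 to 34 reads) among them, and 3 libraries a group limit every test. In each of 19 alternatives 0 of the 45 genes were called, with a lowest adjusted p of 0.294. Over all genes 2 were called with trends removed (Ppp1r1b and Cacng6) and 2 with library weights, estimated gene by gene (Ppp1r1b and Mir6981), none of them a replication gene and all named after their values were seen, and 0 with any one library left out. The median of the 45 ranged from −0.36 to −0.10 with 1 library left out, −0.36 being without wildtype-labelled replicate 3. Genes at an unadjusted p under 0.05, in either direction, are given here with the share of all tested genes. They numbered 1 under the common FPKM total (2.3%), 5 under quantile normalization (3.65%) and 7 with the replicate block (6.01%). With trends removed they numbered 11 (7.69%), and 10 with the block added (11%). Library weights gave 13 (9.59%). Leaving 1 library out gave 0 to 7, with 7 without wildtype-labelled replicate 3 (4.44%) and 6 without wildtype-labelled replicate 1 (12.1%). Without any 1 of the knockout-labelled libraries the number was 0 (1.53% to 2.06%). With trends removed the block took the 2 calls over all genes to 0, and it changed no other call. Genes that did not overlap, in either direction, numbered 17 with trends removed, with or without the block (15.1% of all tested genes), and 10 to 17 with 1 library left out (13.4% to 32.5%). Under the common FPKM total 7 lay lower without overlap (3.2%), where Cdc45, Pold1, Rfc5 and Clspn overlapped and Cdt1, Gins2 and Pold2 did not. An alternative chosen after seeing the data removed trends and left out wildtype-labelled replicate 3 together. It gave 17 genes at an unadjusted p under 0.05 (8.4% in either direction) and 25 that lay lower without overlap (12.5%).

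No sign changed for 24 of the 45 genes, 22 of them lower, and 21 changed sign at least once, in 72 of 848 values. The same counts over all tested genes are not given here, so these do not set the 45 genes apart. With library weights the log2 fold changes that turned were Pcna −0.49, Gmnn −0.72, Gins3 −0.075, Gins4 −0.074, Pola2 0.12, Rfc4 −0.47, Rpa3 −0.90, Orc2 −0.11, Orc3 −0.063, Orc6 −0.025, Tipin −0.27 and Slbp −0.17. With trends removed, with or without the replicate block, they were Gins3 −0.030, Prim2 −0.12, Rpa3 −0.047, Timeless 0.066 and Slbp −0.15. With trends removed and wildtype-labelled replicate 3 left out they were Pcna −0.29, Gmnn −0.46, Gins3 −0.25, Gins4 −0.11, Pola2 0.091, Rfc4 −0.13, Rpa3 −0.32, Orc2 −0.18, Orc3 −0.094, Tipin −0.12 and Slbp −0.16. Under the common FPKM total they were Pola2 0.057, Pold3 0.041, Pole2 0.094, Prim1 0.055, Rfc1 0.046, Rfc3 0.11, Cdc7 0.086 and Timeless 0.061, and with voom Cdc7 0.019. With 1 library left out the ranges that crossed 0 were −0.29 to 0.50 for Pcna, −0.40 to 0.48 for Gmnn, −0.83 to 0.11 for Gins1, −0.25 to 0.34 for Gins3, −0.069 to 0.38 for Gins4, −0.25 to 0.073 for Pola2, −0.33 to 0.023 for Pold3, −0.40 to 0.19 for Pole2, −0.42 to 0.083 for Prim1, −0.066 to 0.21 for Prim2, −0.23 to 0.14 for Rfc3, −0.14 to 1.02 for Rfc4, −0.40 to 0.67 for Rpa3, −0.23 to 0.40 for Orc2, −0.20 to 0.45 for Orc3, −0.54 to 0.46 for Cdc7, −0.15 to 0.65 for Tipin and −0.18 to 0.13 for Slbp. The cause was not tested.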

Other observations

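The wildtype-labelled libraries spread more widely than the knockout-labelled ones for most replication genes. The SD of the log2 level was larger in the wildtype-labelled group for 34 of the 45 genes, against 83.8% of all tested genes, so this holds across the table. The median SD over the 45 genes was 0.42 in the wildtype-labelled and 0.21 in the knockout-labelled group, and 0.28 and 0.14 with trends removed.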
